A study of Mus musculus with 8 samples.

Results

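The cytoplasmic ribosomal protein genes encode the protein part of the ribosome, and their mRNAs were followed here in pre-BII cells of mice that lacked Aiolos, OBF-1 or both. A probe set of the array was taken where its annotation gave exactly 1 symbol and that symbol was an Rpl or Rps gene, Rplp0, Rplp1, Rplp2 or Rpsa, and the brightest probe set stood for each gene. This gave 45 genes of the 12393 with a probe set of 1 symbol, 21 of the small and 24 of the large subunit, from 96 probe sets among the 22626 tested. A further 102 probe sets carry a ribosomal protein symbol together with other symbols and are described only as such.

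The 4 genotypes, with 2 arrays each, were Aiolos/OBF-1 double mutant, Aiolos-/-, OBF-1-/- and wild type mice, all 7 weeks old and, by the label, of a Bl6 strain. The mutants are deletion mice, so every cell of the animal carried the change, not only the B cell lineage. The study's methods describe B220+ CD25+ pre-BII cells sorted from independent pools of mice, 1 pool per array, whereas the sample labels say bone marrow and, for the mutants, a single mouse. The p-values therefore measure the spread between these 2 samples per genotype, and that small number of arrays limits the precision throughout.

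OBF-1 is a B cell coactivator of the octamer-binding factors Oct1 and Oct2, and Aiolos is a DNA-binding zinc-finger factor related to Ikaros. Most ribosomal proteins are present in equal number in each ribosome, and mammalian cells make them in step, mainly by holding back or releasing the translation of mRNAs that begin with a terminal oligopyrimidine (TOP) tract, a C followed by a run of pyrimidines. Large pre-BII cells divide in response to the pre-B cell receptor, while small pre-BII cells leave the cell cycle, a change that usually goes with less ribosome production.

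The promoters of 39 of the 45 members were in the RefSeq table of build GRCm38.p6, as 47 stretches with 250 bases before and 50 after the annotated start. The tract was sought on the sense strand as a C and 4 pyrimidines from the start base. It stood at the start in 8 of the 47 members' promoters (17.0%), those of Rpl14, Rpl35, Rpl38, Rplp2, Rps6, Rps10, Rps18 and Rps27, against 2.51% of all 32851 promoters in the table, and within 5 bases of the start in 42.6% against 18.3%. The octamer ATTTGCAT, read on both strands, was in 0 of the 47 and in 1.74% of all. The core TGGGAA that Ikaros family proteins can bind was in 21.3% of the members' promoters and in 25.6% of all, also on both strands. The ETS motif CCGGAAG (both strands), added after the other values had been seen, was in 42.6% against 8.86% of all and 11.6% of the promoters of protein-coding genes. These are matches of letters and do not show binding.

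The following 6 windows are those of members whose signal passed in a comparison with wild type and whose promoter was in the table. Each gives 60 bases before the start and 30 from it, 5′ to 3′ on the strand of the gene, and capitals mark the pyrimidine tract where one began at the annotated start. They lie at chr2:39005102-39005191 (minus strand, Rpl35), chr3:90213619-90213708 (minus, Rps27), chr9:120571457-120571546 (plus, Rpl14), chr15:5116553-5116642 (plus, Rpl37), chr9:44407654-44407743 (plus, Rps25) and chr17:24727766-24727855 (plus, Rpl3l).
Rpl35: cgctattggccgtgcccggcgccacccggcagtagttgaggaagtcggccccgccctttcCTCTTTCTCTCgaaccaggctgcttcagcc
Rps27: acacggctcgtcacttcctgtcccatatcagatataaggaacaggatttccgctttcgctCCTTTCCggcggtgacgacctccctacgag
Rpl14: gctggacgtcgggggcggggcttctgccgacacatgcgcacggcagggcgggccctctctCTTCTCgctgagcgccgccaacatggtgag
Rpl37: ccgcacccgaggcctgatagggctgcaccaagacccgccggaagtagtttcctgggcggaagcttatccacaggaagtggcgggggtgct
Rps25: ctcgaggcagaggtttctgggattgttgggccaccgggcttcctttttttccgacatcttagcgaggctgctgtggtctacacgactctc
Rpl3l: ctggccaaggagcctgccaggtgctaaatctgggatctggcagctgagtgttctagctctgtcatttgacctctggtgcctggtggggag
Rpl35, Rps27 and Rpl14, all lower in the double mutant, have a tract at the start, of 11, 7 and 6 bases. Rpl37 and Rps25, also lower, have none there or within 5 bases, and neither has Rpl3l, which was higher. The Rps25 window holds a longer pyrimidine run before the annotated start, outside the 5 bases searched. The annotated starts were not checked against mRNA ends, so a missing match does not show that an mRNA lacks the tract.

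The signal of Pou2af1, which encodes OBF-1, was low where the labels name its deletion. It had intensities of 170.1 and 273 in double-mutant and 241 and 236 in OBF-1-/- cells, against 2434 and 2842 in Aiolos-/- and 2761 and 2678 in wild type cells. No probe set of 1 symbol reads Ikzf3, which encodes Aiolos, so that deletion was not checked. The 11 measured pre-BII markers summed to 25956 to 26015 in the double mutant, 30682 to 31989.8 in Aiolos-/-, 27944 to 28456 in OBF-1-/- and 32510 to 33255 in wild type. They went both ways, with 3 higher (Il2ra, Rag2 and Blnk) and 3 lower (Cd79b, Vpreb3 and Ebf1) in the double mutant and a median of -0.10. The 7 immature and mature B cell markers summed to 3669 to 3947 in the double mutant, 5279.9 to 5697 in Aiolos-/-, 4555 to 4738 in OBF-1-/- and 6182 to 6383 in wild type. Of these, 3 were lower and 1 higher in the double mutant, and 3 were lower in OBF-1-/-. The 8 erythroid markers summed to 1762 to 1878 in the double mutant, 1551 to 1829.8 in Aiolos-/-, 2083 to 2516 in OBF-1-/- and 1638 to 1693 in wild type, with 2 higher in the double mutant and 2 in OBF-1-/-. The 9 T and NK cell markers summed to 538 to 566 in the double mutant, 540 to 556 in Aiolos-/-, 487 to 518 in OBF-1-/- and 465 to 482 in wild type. Of these only Lat passed against wild type, higher in the double mutant (0.64, adjusted p = 0.00155, limma) and Aiolos-/- (0.43, adjusted p = 0.0475). The 13 granulocyte and monocyte markers gave higher sums in every mutant, of 30120.5 to 30649.9 in the double mutant, 27755 to 28579 in Aiolos-/-, 29713 to 33807 in OBF-1-/- and 24351 to 24480 in wild type. Of the 13, 8 were higher in the double mutant, 4 in OBF-1-/- and 1 in Aiolos-/-. Of 5 plasma cell markers only Sdc1 passed, higher in the double mutant (0.98, adjusted p = 9.64e-05, limma) and OBF-1-/- (0.84, adjusted p = 0.000927). Over all probe sets, 4.29% were higher in the double mutant, 0.946% in OBF-1-/- and 0.831% in Aiolos-/-, and 4.28%, 1.14% and 1.01% lower. The sum of the 8 pro-B and pre-BI markers came to 12673 to 12844 in the double mutant, 6680.1 to 7350.1 in Aiolos-/- and 4094 to 4103 in OBF-1-/-, against 2686 to 2687 in wild type, and was carried by Igll1, Vpreb1 and Il7r. Their median intensity was 112 to 123 in the double mutant and 112 to 113 in wild type. Dntt, at a low signal (mean 91.7), was also higher in the double mutant (0.59, adjusted p = 0.00237, limma). Kit, Flt3, Erg and Gfra2 did not pass there (-0.05 to 0.14). Fluidics station 1 processed the arrays of the double mutant and Aiolos-/-, and station 2 those of OBF-1-/- and wild type. Genotype and station cannot be told apart where the double mutant or Aiolos-/- is set against wild type or the double mutant against OBF-1-/-, while OBF-1-/- against wild type and the double mutant against Aiolos-/- are comparisons within 1 station.

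Most ribosomal protein mRNAs gave some of the strongest signals on the array. The mean intensity over the 8 arrays had a median of 4404 over the members, against 69.0 over all probe sets, and 32 members were in the brightest 1% of probe sets. Rpl41, the smallest ribosomal protein, had 10011 and 9872 in the double mutant, 9684 and 10036 in Aiolos-/-, 10438 and 10288 in OBF-1-/- and 10773 and 10873 in wild type. All 6 mutant arrays lay below both wild type arrays, but no comparison passed (lowest adjusted p = 0.418, limma, for a log2 fold change of -0.13 in Aiolos-/-). Rps29 and Rps28, both of the head of the small subunit, followed with means of 8136 and 7498.

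The members fell into a bright and a dim group with a gap between them. 33 members had a mean of at least 1000, the lowest being Rpl22 with 1575, and 12 had less, the highest being Rps27l with 621. The dimmest were Rpl39l with 19.7, Rpl3l with 64.1 and Rpl14 with 65.9. Rpl39l and Rpl3l are copies known from testis and from muscle, but Rpl14, Rps27, Rps6, Rpl12 and Rpl37 are general ribosomal proteins whose own probe set was dim. For Rpl14 and Rps27 the probe sets shared with a second symbol had means of up to 2455 and 9175. Intensities of different probe sets also depend on how well the probes bind, and their order is not an order of mRNA amounts.

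**Figure D1:**
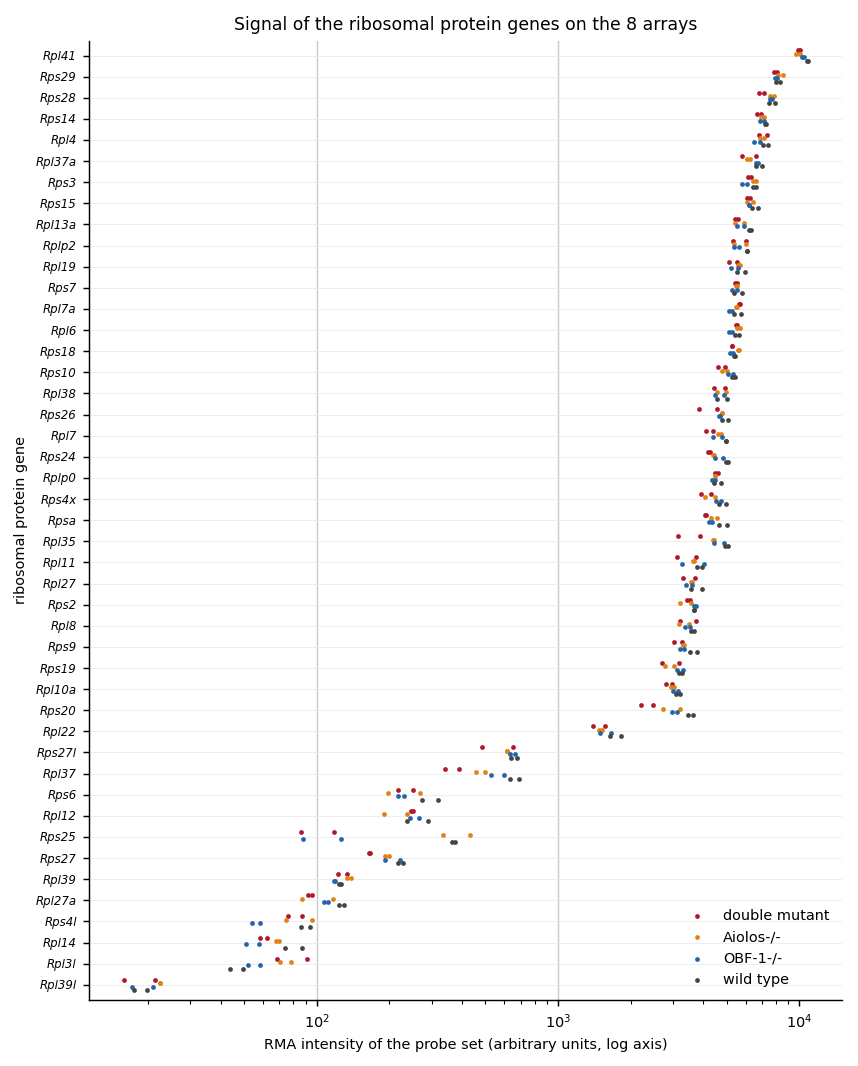
RMA intensity (log axis) of each of the 45 ribosomal protein genes on every array, 2 points per genotype, ordered by mean intensity. Thin lines mark 100 and 1000 units. The 33 bright members lie above 1000 and the 12 dim members below it on every array, with the widest separation between genotypes for Rps25.

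In the double mutant the ribosomal protein genes as a group read slightly lower than in wild type. The log2 fold change was below 0 for 42 of 45 members, with a median of -0.13, against 47.9% of all probe sets below 0 and a median of 0.01. All 21 small subunit members were below 0 (median -0.16) and 21 of the 24 large subunit members (median -0.11). For 30 members both double-mutant arrays lay below both wild type arrays, which held for 23.3% of all probe sets. Bright probe sets in general read lower too. Over the 956 probe sets with a mean of at least 1000 the median was -0.07 and 62.6% were below 0, against -0.12 and 32 of 33 for the bright members. Both double-mutant arrays lay below both wild type arrays for 453 of these 956 and for 24 of the 33 bright members.

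Few single members passed. At an adjusted p under 0.05 (limma, over all 22626 probe sets) 6 members were lower, Rps25, Rpl37, Rps20, Rpl35, Rps27 and Rpl14, and 1 was higher, Rpl3l. Over all probe sets 4.28% were lower and 4.29% higher. Among the 33 bright members 2 were lower, Rps20 and Rpl35, where 12.9% of all bright probe sets were lower. In a fit on the 956 bright probe sets alone, 6 of the 33 were lower, with Rps24, Rpsa, Rpl7 and Rps9 added, where 23.3% of those probe sets were. An unadjusted p under 0.05 was reached by 16 of the 45 and by 21.4% of all probe sets. With the variances of single probe sets in place of moderated ones, 0 members passed in any comparison. The share of all probe sets passing with those variances is not given here, so this 0 is not a result about the members. In bulk samples of this kind, fewer cells of a type and less mRNA per cell cannot be told apart.

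**Figure D2:**
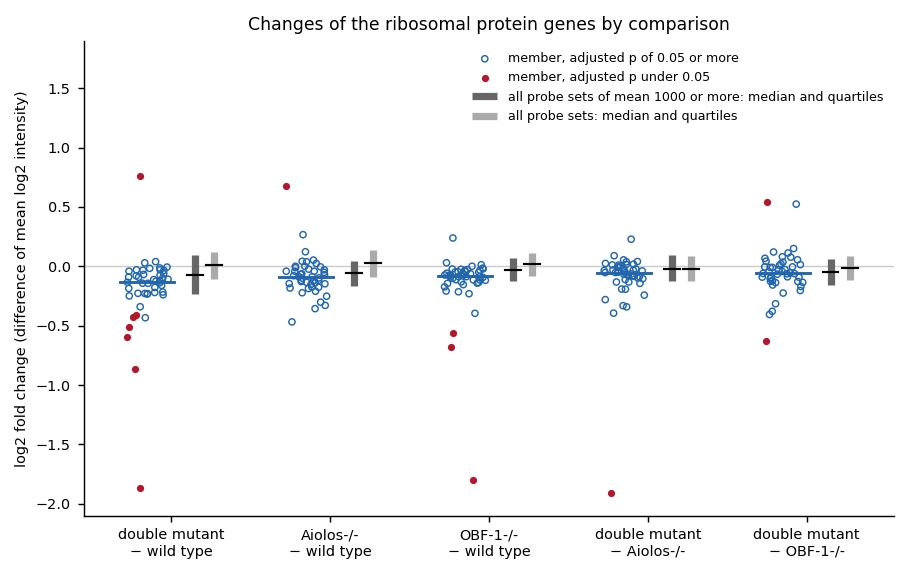
Log2 fold change (vertical axis) of each of the 45 members in 5 comparisons, with filled points for those past an adjusted p of 0.05 and a blue line at the members' median. Bars beside them give the median and quartiles of all probe sets and of those with a mean of at least 1000. The members' medians lie between -0.13 and -0.05, while single genes, Rps25 above all, lie far outside.

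Rpl37, a zinc-binding protein of the large subunit, had intensities of 339 and 388 in the double mutant, 457 and 497 in Aiolos-/-, 599 and 527 in OBF-1-/- and 630.3 and 689.8 in wild type. The genotypes did not overlap, and the order from low to high was double mutant, Aiolos-/-, OBF-1-/- and wild type. The double mutant was lower than wild type (log2 fold change -0.86 ± 0.11, SE, adjusted p = 0.000382) and lower than OBF-1-/- (-0.63 ± 0.11, adjusted p = 0.00921, but 0.0877 without double mutant replicate 1 and 0.0764 without OBF-1-/- replicate 1). Aiolos-/- differed from wild type by -0.47 (adjusted p = 0.0544) and OBF-1-/- by -0.23 (adjusted p = 0.392). A probe set annotated to both Rpl37 and the retrogene Rpl37rt gave -0.77 in the double mutant (mean 1915, adjusted p = 0.00172), but another with a mean of 3631 and a second symbol gave -0.19 (adjusted p = 0.331).

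Rps20, a protein of the small subunit head that binds 18S rRNA, had 2211 and 2469.9 in the double mutant, against 3442 and 3609.6 in wild type. Aiolos-/- cells had 2734 and 3206 and OBF-1-/- cells 3103 and 2974, so both single mutants lay between the double mutant and wild type. The double mutant was lower than wild type (log2 fold change -0.59 ± 0.10, SE, adjusted p = 0.00401). A second bright Rps20 probe set gave -0.23 (adjusted p = 0.284), and 2 dim ones with means of 33.5 and 10.6 gave 0.10 and -0.06.

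Rpl35 sits at the exit of the tunnel through which the new protein leaves the ribosome. It had 3151 and 3893 in the double mutant, 4407 and 4404 in Aiolos-/-, 4857 and 4429 in OBF-1-/- and 5052 and 4904.5 in wild type. Both double-mutant arrays were below all 6 others. The log2 fold change against wild type was -0.51 ± 0.11 (SE, adjusted p = 0.0139), and the 4 other bright Rpl35 probe sets gave -0.49 to -0.60 and all passed. For the brightest, the adjusted p was 0.120 without double mutant replicate 1, 0.0862 without wild type replicate 1 and 0.0670 without wild type replicate 2. The dim Rpl35 probe set with no suffix letter (mean 29.6) gave 0.07 (adjusted p = 0.756).

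Rps27, a zinc-binding protein of the small subunit, had 165 and 166 in the double mutant, 192 and 199.7 in Aiolos-/-, 220.5 and 192 in OBF-1-/- and 227 and 218 in wild type. The double-mutant arrays were below all 6 others, and OBF-1-/- overlapped both Aiolos-/- and wild type. The double mutant was lower than wild type (log2 fold change -0.43 ± 0.10, SE, adjusted p = 0.0167), and the call was lost without any 1 array of either genotype (adjusted p = 0.0592 to 0.101). The far brighter probe set shared by Rps27 and the retrogene Rps27rt gave -0.42 (adjusted p = 0.0130).

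Rpl14, a large subunit protein, had 58.0 and 62.4 in the double mutant, 69.6 and 67.8 in Aiolos-/-, 51.2 and 57.5 in OBF-1-/- and 73.8 and 86.9 in wild type. Every mutant array was below both wild type arrays. The change was -0.41 ± 0.11 in the double mutant (SE, adjusted p = 0.0326) and -0.56 ± 0.11 in OBF-1-/- (adjusted p = 0.0173). The double mutant call was lost without double mutant replicate 1 or 2 (adjusted p = 0.182 and 0.0650) or wild type replicate 2 (0.232), and the OBF-1-/- call without OBF-1-/- replicate 1 (0.134) or wild type replicate 2 (0.1501). Of the 5 probe sets annotated to Rpl14 and a pseudogene, those with means of 1045 to 2455 gave -0.41 to -0.49 in the double mutant and passed, but only -0.08 to -0.17 in OBF-1-/- and did not pass there (lowest adjusted p = 0.485).

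**Figure D3:**
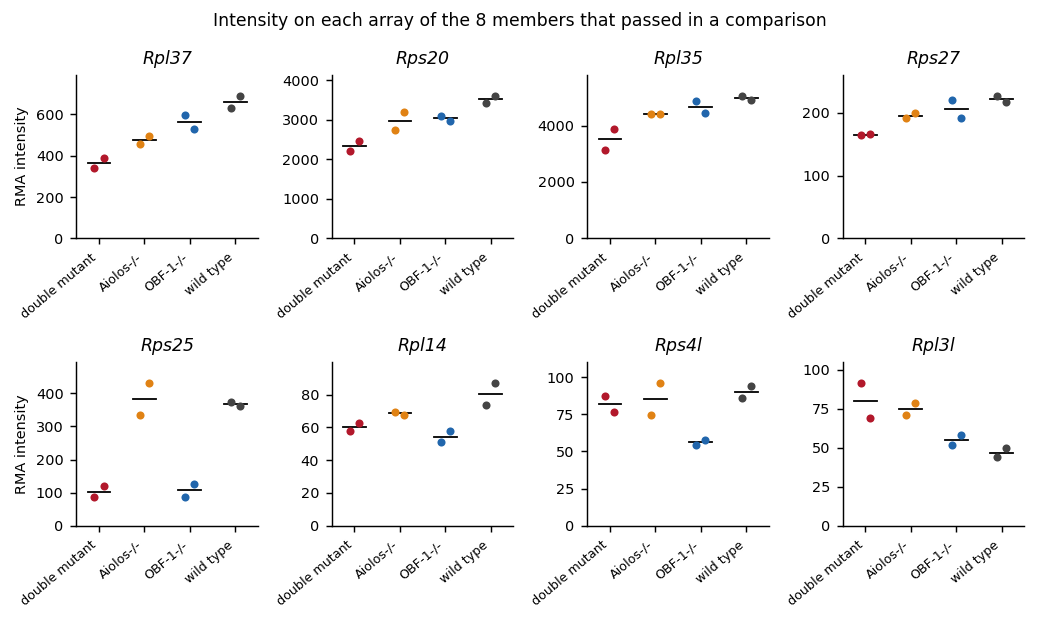
RMA intensity (vertical axes, from 0) on each array of the 8 members that passed in at least 1 comparison, with a line at the mean of the 2 arrays. Rpl37, Rps20, Rpl35 and Rps27 are lowest in the double mutant, Rps25 is low in both genotypes without OBF-1, and Rpl3l is highest in both genotypes without Aiolos.

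Rps25 gave the largest difference of any member, and it was low in both genotypes without OBF-1. This head protein of the small subunit is known for its part in translation from internal ribosome entry sites. It had 86.3 and 119 in the double mutant and 88.0 and 127 in OBF-1-/-, against 334 and 431 in Aiolos-/- and 374 and 363 in wild type. The genotypes without OBF-1 lay below every array of the genotypes with it, and the pair with and the pair without OBF-1 overlapped within themselves. The fold change was 0.287 in OBF-1-/- against wild type (log2 -1.80 ± 0.18, SE, adjusted p = 0.000202), 0.275 in the double mutant against wild type (-1.86, adjusted p = 5.74e-05) and -1.91 on the log2 scale in the double mutant against Aiolos-/- (adjusted p = 8.4e-05). On that scale it was 0.04 in Aiolos-/- against wild type (adjusted p = 0.924) and the interaction was -0.10 (adjusted p = 0.898). The 3 calls held without any 1 array.

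A second reading of Rps25 did not pass. The probe set annotated to Rps25 and 2 gene models, Gm6988 and Gm4963, had a mean of 1871 and gave -0.14 in OBF-1-/- (adjusted p = 0.629) and -0.22 in the double mutant (adjusted p = 0.258), both against wild type. The Rps25 probe set of 1 symbol had a mean of 240.0. Rps25 lies on chromosome 9, 6.81 Mb from the start of Pou2af1, the deleted gene. Of the other members on that chromosome, Rpl4 at 12.96 Mb gave -0.12 in OBF-1-/-, Rps27l at 15.7 Mb -0.03, Rpsa at 68.9 Mb -0.17 and Rpl14 at 69.4 Mb -0.56.

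The paralogue copies behaved each in its own way, at low signal. Rpl3l, a copy of Rpl3 known from heart and skeletal muscle, had 91.3 and 68.7 in the double mutant and 70.6 and 78.4 in Aiolos-/-, against 52.0 and 58.3 in OBF-1-/- and 43.9 and 49.5 in wild type. All 4 arrays without Aiolos were above all 4 with it. The log2 fold change was 0.76 ± 0.13 in the double mutant (SE, adjusted p = 0.00386) and 0.67 ± 0.13 in Aiolos-/- (adjusted p = 0.0297), both against wild type. The Aiolos-/- call was lost without any 1 array of Aiolos-/- or wild type (adjusted p = 0.0685 to 0.231). For Rpl3l, the genotypes without Aiolos are also those of fluidics station 1, and the allele and the station cannot be told apart.

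Rps4l, an autosomal copy of Rps4x, read lowest in OBF-1-/-. It had 54.1 and 58.1 in OBF-1-/-, against 87.3 and 76.3 in the double mutant, 74.6 and 96.0 in Aiolos-/- and 86.0 and 93.9 in wild type. Both OBF-1-/- arrays were below all 6 others. OBF-1-/- was lower than wild type (log2 fold change -0.68 ± 0.13, SE, adjusted p = 0.0150), and the double mutant higher than OBF-1-/- (0.54 ± 0.13, adjusted p = 0.0439). The interaction (the effect of losing OBF-1 in cells without Aiolos less its effect in cells with Aiolos) was 0.63 ± 0.18 (adjusted p = 0.260) and did not pass. Both calls were lost without any 1 array of the genotypes compared (adjusted p = 0.0687 to 0.229), and that of the double mutant also without either wild type array (0.0625). Rps27l, a p53-induced copy of Rps27, and Rpl39l, a testis copy of Rpl39, gave -0.23 (adjusted p = 0.330) and -0.01 (adjusted p = 0.974) in the double mutant against wild type.

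In Aiolos-/- cells the members' median log2 fold change against wild type was -0.09, against 0.03 over all probe sets, and 37 of 45 were below 0, against 42.7%. For 26 members both Aiolos-/- arrays lay below both wild type arrays, against 21.8% of all probe sets. Of the 33 bright members 29 were below 0 with a median of -0.08, against 65.0% and -0.05 for all bright probe sets. Both Aiolos-/- arrays lay below both wild type arrays for 19 of these 33 and for 395 of the 956 bright probe sets. Rpl3l was the only call, with 0 lower, where 1.01% of all probe sets were lower and 0.831% higher. An unadjusted p under 0.05 was reached by 6 members and by 18.8% of all probe sets. Rpl37 and Rps6 had the lowest values, of -0.47 (adjusted p = 0.0544) and -0.36 (adjusted p = 0.208), and Rpl39l and Rpl39 gave 0.27 (adjusted p = 0.336) and 0.12 (adjusted p = 0.482).

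In OBF-1-/- cells, compared with wild type on the same fluidics station, the median was -0.08 against 0.02 over all probe sets, and 41 of 45 members were below 0, against 44.3%. For 25 members both OBF-1-/- arrays lay below both wild type arrays, against 18.8% of all probe sets. Rps25, Rps4l and Rpl14 were lower and 0 were higher, where 1.14% of all probe sets were lower and 0.946% higher. Of the 33 bright members 31 were below 0 with a median of -0.08, against 56.3% and -0.03 for all bright probe sets. Both OBF-1-/- arrays lay below both wild type arrays for 18 of these 33 and for 318 of the 956 bright probe sets. By limma 0 of the 33 passed, where 2.51% of all bright probe sets were lower, and 0 reached an unadjusted p under 0.05, against 18.0% of all bright probe sets, with changes between -0.21 and 0.01. Rps6, whose phosphorylation follows growth signals, had 216 and 249.6 in the double mutant, 197 and 269 in Aiolos-/-, 229.8 and 218 in OBF-1-/- and 273 and 317 in wild type. All mutant arrays were below both wild type arrays, with -0.40 in OBF-1-/- (adjusted p = 0.234) and -0.34 in the double mutant (adjusted p = 0.185). The 2 brightest probe sets annotated to Rps6 and a second symbol (means 9945 and 6743) gave -0.04 and -0.14 in OBF-1-/- and 0.04 and -0.14 in the double mutant. Others with means of 3140, 268 and 259 were lower in the double mutant (-0.39, -0.52 and -0.67, adjusted p = 0.0320, 0.0144 and 0.00428, limma). The remaining ones gave -0.27 to -0.02 there and did not pass, and none passed in OBF-1-/-.

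Adding the loss of OBF-1 to the loss of Aiolos, within the other station, gave a median of -0.05 against -0.02 over all probe sets, with 34 of 45 members below 0 against 56.5%. Rpl12, a protein at the base of the stalk, was the highest with 0.23 (adjusted p = 0.397) on its dim probe set, while 2 bright ones annotated to Rpl12 and other symbols gave -0.18 and -0.04. Rps25 was the only call, where 1.19% of all probe sets were lower and 1.75% higher. Adding the loss of Aiolos to that of OBF-1 gave a median of -0.06 against -0.02, with 31 of 45 below 0 against 54.4%, and Rpl37 lower and Rps4l higher, where 1.03% were lower and 1.61% higher. In that comparison the bright members had a median of -0.06 and all bright probe sets one of -0.05. The interaction was called for 0 members and for 0.186% of all probe sets (limma), and 2 members reached an unadjusted p under 0.05, as did 11.8% of all probe sets.

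By place in the ribosome, the stalk that recruits elongation factors was read by 2 members. Rplp0 had 4489 and 4600.4 in the double mutant against 4751 and 4448 in wild type, which overlapped, with a log2 fold change of -0.02 (95% interval -0.21 to 0.18, adjusted p = 0.947). Rplp2 gave -0.11 (-0.33 to 0.11, adjusted p = 0.605). Rpl11, which with the 5S rRNA can hold back Mdm2, gave -0.18 (-0.44 to 0.08, adjusted p = 0.445). Rps19, mutated in Diamond-Blackfan anaemia in humans, gave -0.13 (adjusted p = 0.514), Rpl22, needed for T cell development in mice, -0.23 (adjusted p = 0.216), and Rpsa, also a laminin receptor, -0.24 (adjusted p = 0.138). Among the 5 members of the exit ring the median was -0.11 and Rpl35 was the only one to pass, and among the 9 of the small subunit head it was -0.13 and Rps25 and Rps20 passed. Rpl39 of the exit ring gave 0.04 (adjusted p = 0.865) and, with Rpl7a and Rpl3l, was 1 of the 3 members above 0. Its probe set is dim, and a bright one annotated to Rpl39 and a second symbol (mean 4102) was lower (-0.46, adjusted p = 0.0432).

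The reading of a gene depended on the probe set. Of the 51 other probe sets of these 45 genes, 11 were lower and 1 higher in the double mutant than in wild type, with a median of -0.24. Of the 25 bright ones among them 6 were lower, beside the 12.9% of all bright probe sets. Of these 6, 4 read Rpl35, 1 Rpl13a and 1 Rps24, so they stand for 3 of 14 genes. For 14 genes with more than 1 bright probe set, the others read lower than the brightest in 12, with medians of -0.24 for the others and -0.14 for the brightest. Rps7 gave -0.03 on the brightest and -0.37 on the other, Rps29 -0.03 and -0.20 to -0.24, and Rpl13a -0.19 and -0.28 to -0.42. Rps20 and Rps14 were the 2 exceptions. Of the 102 probe sets with several symbols, 26 were lower and 0 higher in the double mutant, with a median of -0.21, beside 4.28% lower and 4.29% higher over all probe sets. Some of the 26 read the same gene, such as Rpl14 and Rps6. The brightest probe set thus gave the smaller difference in most of these genes, and the part of signal height in this was not tested.

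**Figure D4:**
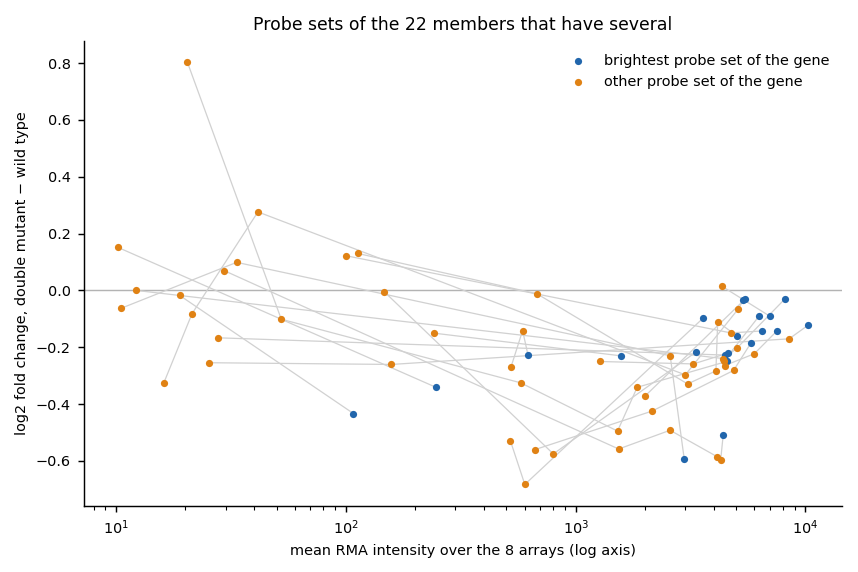
Log2 fold change of the double mutant against wild type (vertical axis) and mean intensity (log axis) of every probe set of the 22 members that have several, with grey lines joining those of 1 gene. Of the 25 orange points above a mean of 1000, 24 lie below 0, and in 12 of 14 genes they average below the brightest probe set of the gene.

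Other genes of protein synthesis were read from lists chosen by function, and the counts stand beside 4.28% lower and 4.29% higher over all probe sets. Apart from the mitochondrial list, at most 3 genes of a list passed in either direction. Of 74 mitochondrial ribosomal protein genes, 10 were lower and 1 higher in the double mutant than in wild type, with a median of -0.17 and 66 below 0. Mrps18c had a mean of 219.5 in the double mutant against 334 in wild type (-0.61, adjusted p = 0.00489) and Mrps6 gave -0.50 (adjusted p = 0.0139). Mrpl37 went the other way, with means of 475 in the double mutant, 413 in Aiolos-/-, 256 in OBF-1-/- and 274 in wild type (0.79 in the double mutant, adjusted p = 0.00021). Without double mutant replicate 1 none of the 74 was lower, and without wild type replicate 1 or 2 only 2 and 1 were.

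Among 21 elongation factors and other TOP mRNAs, 2 were lower, Eif3k (-0.36) and Rpl22l1 (-0.51), and the median was -0.15. The median of this list was also -0.15 in OBF-1-/-, with 20 of 21 below 0 and 0 called, and 0.01 in Aiolos-/-. The initiation factors had a median of 0.02, with 2 of 25 lower, Eif2s2 (-0.40) and Eif3m (-0.41). The ribosome biogenesis factors had a median of -0.03, with 3 of 71 lower, the nucleolar proteins Nop56 (-0.45), Nhp2 (-0.37) and Rpf2 (-0.38). The RNA polymerase I and III list had 1 of 25 lower, Polr1c (-0.38), a subunit of both enzymes, and 1 higher, Polr3g (0.37). Among 23 regulators 1 was higher, Rps6ka3, a kinase that phosphorylates the ribosomal protein S6 (0.53, adjusted p = 0.00373). The list of 29 proliferation genes had a median of -0.16 in the double mutant, with 1 lower, and -0.14 in Aiolos-/-, but 0.11 in OBF-1-/-. The part of proliferation and of the granulocyte, erythroid and B cell stage markers in these differences was not tested.

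**Figure D5:**
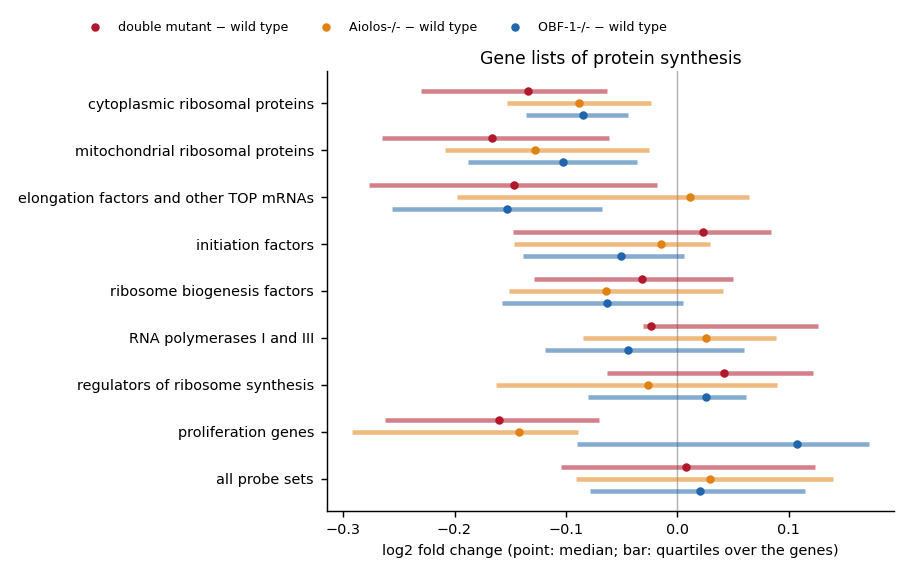
Median (points) and quartiles (bars) of the log2 fold change against wild type over the genes of each list, for the double mutant, Aiolos-/- and OBF-1-/-. The cytoplasmic and mitochondrial ribosomal protein genes have medians between -0.17 and -0.08 in all 3 mutants, while all probe sets together lie between 0.01 and 0.03.

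The size of the common shift depended on the scaling of the arrays. The median of the members was 11.90 and 11.99 on the log2 scale on the double-mutant arrays and 12.19 and 12.26 on the wild type arrays. Over the 33 bright members it was 12.13 and 12.26 against 12.30 and 12.31. The median falls on different members on different arrays, so these gaps are not the median change of -0.13. The members took 3.08 and 3.13% of the summed signal in the double mutant, 3.23 and 3.28% in Aiolos-/-, 3.24 and 3.15% in OBF-1-/- and 3.26 and 3.38% in wild type. With a further quantile normalization of the deposited values, the median change in the double mutant was -0.06, and that in Aiolos-/- -0.02. The direction was kept. The array medians of the members on the deposited values had a pooled SD within genotypes of 0.0455, which cannot be set beside the changes after the further normalization.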

How the data were processed

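RNA of 2 samples for each of 4 genotypes was hybridised to Affymetrix MOE430A arrays, 1 per sample. The authors deposited linear intensities made with RMA (background correction, quantile normalization and a summary per probe set), per the labels, with no version given. The study's methods also name Affymetrix Microarray suite 5, GeneSpring 5 and an intensity window of 100 to 1000, and state no test. A figure legend of the study gives a fold change threshold and a p-value cutoff of 0.05, with no test named. RMA brings the arrays to a common distribution, so a change shared by all genes cannot be seen. Absolute depth has no meaning for arrays, and their number limits the precision.

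Of 22690 probe sets 64 controls were left out. 20380 of the rest carry 1 symbol in the platform annotation, 691 several and 1555 none, and 20351 were matched by gene ID to the RefSeq gene table. Values were taken to log2 with no pseudocount and no filter and fitted with limma 3.58.1 (R 4.3.3; lmFit and eBayes) with 1 mean per genotype, on 4 residual and 7.69 prior degrees of freedom. P-values were adjusted by Benjamini-Hochberg over all 22626 probe sets and called under 0.05. The fit was tested on simulated data.

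Members named in the text are those past the threshold, the 2 highest and 2 lowest in each comparison, the 3 brightest and 3 dimmest, and set roles, and up to 3 genes per list. The members and lists were chosen with earlier results of these data known. Letters in a probe set's ID (a, s, x) mark probes that may bind several transcripts (16 members a, 1 s, 12 x). Alternatives were other scalings, filters on dim probe sets, other probe sets per gene, no or other moderation, only the genotypes compared, the replicate number as a block and leaving out each array. Promoter sequences are from RefSeq, build GRCm38.p6.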

Additional observations from a re-analysis of the deposited data

How the results depend on the processing

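The median change of the ribosomal protein genes kept its direction in all 5 comparisons between genotypes under every alternative run, and the single calls did not. For the double mutant against wild type, the number higher was 0 with an intensity of at least 100 on 2 arrays, with a mean of at least 1000, in the window of 100 to 1000 and without moderation, the number lower was 0 without moderation, and the median was -0.38 in the window and -0.0592 after quantile normalization. For Aiolos-/- against wild type, the number higher was 0 under the same 4 settings, the number lower was 1 with at least 100 on 2 arrays, the mean of all probe sets, median centring, the window or trend and robust moderation, and the median was -0.24 in the window and -0.0193 after quantile normalization. For OBF-1-/- against wild type, the number lower was 1 with at least 100 on 2 arrays and in the window and 0 with a mean of at least 1000 and without moderation, and the median was -0.16 in the window. For the double mutant against Aiolos-/-, the number lower was 2 with 75th percentile centring and with quantile normalization, 3 with trend and robust moderation and 0 without moderation, and the median was -0.11 and -0.12 with 75th percentile centring and in the window. For the double mutant against OBF-1-/-, the number higher was 0 with 75th percentile centring, both filters, the window and no moderation, the number lower was 2 with 75th percentile centring or a mean of at least 1000, 3 with trend and robust moderation and 0 without moderation, and the median was -0.13 in the window. The interaction had a median of -0.0545 with 75th percentile centring, which moved the median of all probe sets to -0.11, and -0.0569 in the window, against 0.02. The median intensity over the members was 3019 with the mean of all probe sets. With probe sets that carry no suffix letter, Rpl35 gave 0.0700 and Rps20 0.0990 in the double mutant. The filter of at least 100 on 2 arrays leaves 41 members. It removes the calls of Rpl3l, Rps4l and Rpl14, while the dim members Rps25, Rpl37 and Rps27 stay in. The filter of a mean of at least 1000 leaves 33 and removes the calls of all dim members. For the calls gained under a filter and for the other settings the cause was not tested. The share of all probe sets called without moderation is not given here.

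Without 1 array at a time, the number lower in the double mutant against wild type was 3 to 7 and the median -0.18 to -0.11. In Aiolos-/- 0 to 1 were higher and 0 to 1 lower, in OBF-1-/- 1 to 3 were lower, and in the double mutant against OBF-1-/- 0 to 1 were higher and 0 to 2 lower. In the double mutant against wild type, Rps25, Rpl37, Rps20 and Rpl3l passed without any 1 array. Same-numbered arrays did not deviate together (correlations of -0.0875 to 0.103 between genotypes), and with the replicate number as a block the calls were unchanged, with 6 lower and 1 higher in the double mutant and a median of -0.13. The fit on only the compared genotypes could not be made for the interaction, which needs all 4. The members at the lowest signals were Rpl39l, Rpl3l and Rpl14. By mean intensity, Rpl39l lay at percentile 18.3 of all probe sets, toward the lower end of the array. Rpl3l and Rpl14 lay at percentiles 48.3 and 49.0, near the middle.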
